A study of Mus musculus with 8 samples.

Results

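Of the 12746 genes with a single symbol on the arrays, the TSC22 domain family made up 4: Tsc22d1, Tsc22d2, Tsc22d3 and Tsc22d4. Its members were all probes that the platform annotation gives one of these symbols, 6 of 16361 in the value table, and all 6 had values on every array. Tsc22d1 and Tsc22d3 were read by 1 probe each, Tsc22d2 and Tsc22d4 by 2 each. RNA came from mpkCCDc14 cells, an immortalized mouse line of the kidney cortical collecting duct, grown as tight epithelial layers on collagen-coated filters and kept in steroid-free serum before treatment. On each of 8 dual-colour arrays, cells given aldosterone at 1 µM (Cy5) were set against cells given the ethanol vehicle for the same time (Cy3), with 4 arrays at 1 h and 4 at 6 h. A log2 ratio above 0 therefore means more signal with aldosterone. The model is a single cell line at a single dose, one at which aldosterone is known to bind the glucocorticoid receptor as well as the mineralocorticoid receptor.

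TSC22 proteins share a leucine zipper preceded by the conserved TSC box, through which they form dimers, and they lack the basic region with which classical zipper factors bind DNA. Tsc22d3 encodes GILZ, the glucocorticoid-induced leucine zipper, a direct target of corticosteroid receptors. In collecting duct cells GILZ is known to raise the number of epithelial sodium channels at the surface, in a complex with the kinase Sgk1 and the ubiquitin ligase Nedd4l, and to restrain ERK signalling. Tsc22d1 was first described as a transcript stimulated by TGF-beta. The longer family proteins, Tsc22d2 and Tsc22d4 among them, bind the pseudokinase Nrbp1 and are linked through it to the WNK kinases that control chloride cotransport.

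Tsc22d3 lies on the minus strand of the X chromosome (GRCm38.p6, chrX:140539528-140600522), and the RefSeq promoter table gives 3 start sites for it. The 250 bases before each start are shown because Tsc22d3 was the only family member called above vehicle at 6 h. Capitals mark AGAACA or its reverse complement TGTTCT, one arm of the palindromic glucocorticoid response element, which mineralocorticoid receptors also bind.
Tsc22d3, chrX:140600523-140600772, minus strand: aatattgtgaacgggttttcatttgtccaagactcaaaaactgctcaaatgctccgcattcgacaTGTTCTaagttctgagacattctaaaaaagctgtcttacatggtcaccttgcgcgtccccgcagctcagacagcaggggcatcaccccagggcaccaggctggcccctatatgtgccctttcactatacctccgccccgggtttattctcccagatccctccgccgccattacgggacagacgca
Tsc22d3, chrX:140548572-140548821, minus strand: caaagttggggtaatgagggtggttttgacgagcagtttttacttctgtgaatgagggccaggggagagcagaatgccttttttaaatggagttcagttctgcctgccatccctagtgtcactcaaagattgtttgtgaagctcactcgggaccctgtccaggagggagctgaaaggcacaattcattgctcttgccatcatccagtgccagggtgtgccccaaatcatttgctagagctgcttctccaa
Tsc22d3, chrX:140542669-140542918, minus strand: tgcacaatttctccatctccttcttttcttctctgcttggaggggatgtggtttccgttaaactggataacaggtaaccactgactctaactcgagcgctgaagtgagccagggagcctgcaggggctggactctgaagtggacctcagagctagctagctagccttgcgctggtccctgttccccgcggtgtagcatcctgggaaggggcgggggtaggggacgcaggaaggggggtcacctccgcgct
The first window held the arm once, beginning 185 bases before the start, and the other 2 windows did not hold it. Of all 32851 promoter windows of this length, 16.1% held AGAACA on either strand. The full element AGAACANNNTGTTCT was in none of the 3 windows and in 3 windows overall (0.00913%). The cyclic AMP response element TGACGTCA (1.55% of all windows) and the FOXO motif GTAAACA (3.17%), searched on both strands, were in none of them either. Of the 5 windows for Tsc22d1, on chromosome 14, 1 held the AGAACA arm and none held the other motifs. No window matched Tsc22d2 (chromosome 3) or Tsc22d4 (chromosome 5). These matches describe letters near the starts, and elements farther away were not searched.

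At 6 h Tsc22d3 was above vehicle on every array, as were 22.4% of all features. Its log2 ratios were 1.15, 1.15, 1.59 and 1.19 on replicates 1 to 4, and all 4 lay at or above the 99th percentile of their array. The mean was 1.27 ± 0.23 (standard error of the limma fit over all 8 arrays, n = 4), a 2.41-fold ratio with a 95% interval of 1.68 to 3.46. The adjusted p was 0.00778 by limma with Benjamini-Hochberg adjustment over 15078 features. Only 20 features, Tsc22d3 included, had a mean at or above this one. Of all features, 17.8% were called at 6 h, and 7.13% were called above vehicle, so a call alone is common at this time. The call held under all the scalings, fits and single-array omissions tried (adjusted p from 0.00505 to 0.0351 with an array left out).

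At 1 h the same probe did not give 1 answer. It read 1.01 on replicate 1, 0.88 on replicate 2, -0.60 on replicate 3 and -0.15 on replicate 4. Thus 2 arrays stood at the 99.4 percentile or higher of all features while replicate 3 stood at the 4.8 percentile and replicate 4 at the 38.7. The mean of 0.29 ± 0.23 did not pass (adjusted p = 0.344), and its 95% interval ran from -0.24 to 0.81. The mean depended on which array was present: it was 0.04 without replicate 1, 0.09 without replicate 2, 0.43 without replicate 4 and 0.58 without replicate 3 (adjusted p = 0.0581). Sgk1, the aldosterone-induced kinase that acts with GILZ on the sodium channel, read 1.65, 1.38, -0.64 and -0.16 in the same order, so the same arrays were high and low for both genes. How many of all features split the 1 h arrays in this way was not counted. Over all probes, replicates 3 and 4 of 1 h were the most correlated pair of the series (Pearson r = 0.72). The split is therefore not shown to be particular to these genes. The labels give no batch for these arrays, and what separates them was not tested.

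**Figure D1:**
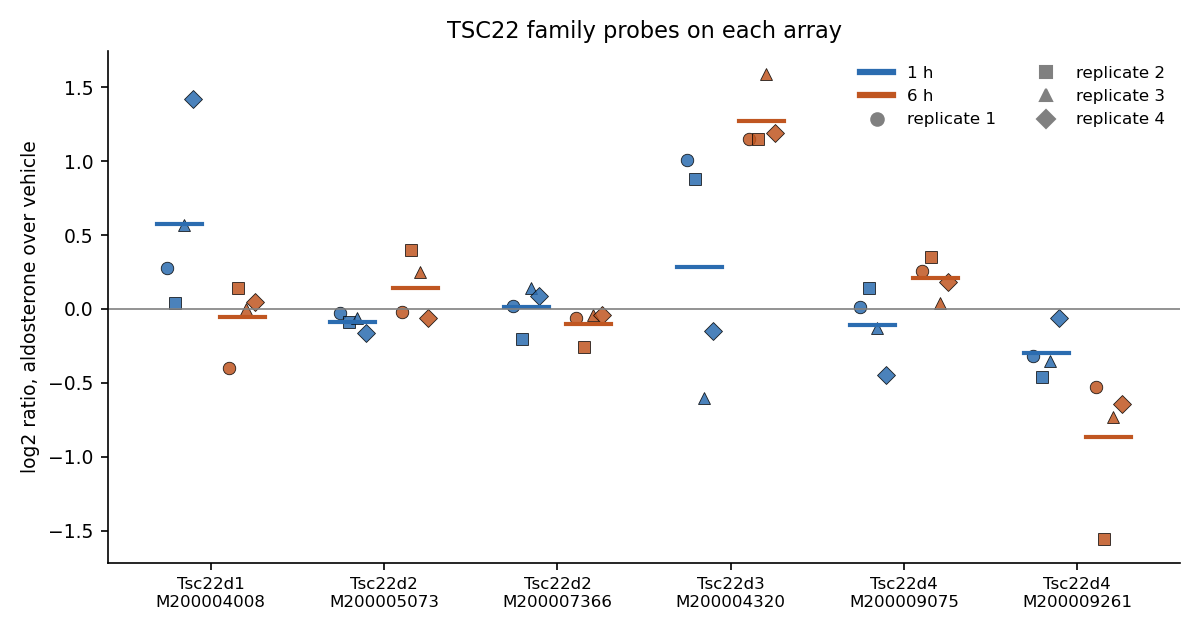
Log2 ratio of aldosterone over vehicle (vertical axis) for the 6 probes of the family on each array, with 1 h in blue, 6 h in orange, symbols for replicates and bars for the means of 4 arrays. Tsc22d3 sits between 1.15 and 1.59 at 6 h and between -0.60 and 1.01 at 1 h, and the probes of Tsc22d4 lie on opposite sides of 0 at 6 h.

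Since aldosterone was always in Cy5, response and dye cannot be told apart at a single time, and a constant dye difference cancels only in the contrast of the times. For Tsc22d3 that contrast, 6 h minus 1 h, was 0.99 ± 0.33 (95% interval 0.25 to 1.72), or 1.98-fold. All 6 h arrays lay above all 1 h arrays, a separation shown with 6 h higher by 5.03% of all features. An exact two-sided permutation test over the 70 splits of the 8 arrays was not among the planned tests. It restates this separation, with a p of 0.0286, the smallest that 4 arrays against 4 can give. In the fit across all features the adjusted p was 0.233 (0.0139 before adjustment), and the difference did not pass. Over all features 0.0265% were called in this contrast, 0.0199% with 6 h higher. The exact test also missed 0.05 without any one of the 6 h arrays (exact permutation p from 0.114 to 0.171). The remaining 6 h arrays still lay above all the 1 h arrays. With groups of unequal size, splits that set the low 1 h arrays apart gave mean differences as large in size. These p-values therefore do not show that the separation depends on any 1 of the 6 h arrays. The separation is narrow, since replicate 1 at 1 h stood at 1.01 and the lowest 6 h arrays at 1.15. After quantile normalization the arrays of the times overlapped (1.24 on replicate 1 at 1 h, 0.86 on replicate 4 at 6 h, exact permutation p = 0.171), and likewise after scaling to equal median absolute deviation (exact permutation p = 0.0571).

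Tsc22d1, the TGF-beta-stimulated member, showed the reverse order of the times. At 1 h its ratios were 0.28, 0.04, 0.57 and 1.42 on replicates 1 to 4, all above 0, with replicate 4 far above the others. The mean was 0.58 ± 0.19 (1.49-fold, limma adjusted p = 0.0343), above vehicle, at a time when 41% of all features were called and 20% were called above. Without replicate 4 the mean was 0.30 (adjusted p = 0.106), and without replicate 3 the call was also lost (adjusted p = 0.0843). Replicate 4 had the widest spread of all arrays (standard deviation of log2 ratios 0.58, against 0.31 to 0.49 on the others). At 6 h the ratios were -0.40, 0.14, 0.0006 and 0.05, with a mean of -0.05 ± 0.19 (adjusted p = 0.867, 95% interval -0.47 to 0.37). The contrast of 6 h minus 1 h was -0.63 ± 0.27 (adjusted p = 0.297). Its arrays overlapped between the times, and the exact permutation p was 0.0857.

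Tsc22d2, a long member that binds Nrbp1, stayed near a ratio of 1 as the average of its 2 probes. The mean of its probes lay between -0.15 and 0.04 on the 1 h arrays and between -0.05 and 0.11 on the 6 h arrays. The means were -0.04 ± 0.06 at 1 h (adjusted p = 0.668) and 0.02 ± 0.06 at 6 h (adjusted p = 0.839). The 95% interval at 6 h, 0.92 to 1.12 as a fold, does not reach the 2.41-fold of Tsc22d3. Neither probe passed at either time. Their 6 h means had opposite signs, 0.14 for M200005073 and -0.10 for M200007366, so the average lies between them. As folds, their 95% intervals at 6 h were 0.97 to 1.26 and 0.83 to 1.05. At 6 h the first, M200005073, read -0.02, 0.40, 0.25 and -0.06, and the second, M200007366, read -0.06, -0.26, -0.04 and -0.04. They differed most on replicate 2, where one was the highest and the other the lowest of its 6 h values.

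Tsc22d4, another partner of Nrbp1 with a known part in liver lipid and insulin metabolism, was read by probes that disagreed. Probe M200009261 was below vehicle on all 8 arrays (as were 15.1% of probes, and at 6 h 23.5% of features were below on all 4), with -0.32, -0.46, -0.35 and -0.06 at 1 h and -0.53, -1.56, -0.73 and -0.64 at 6 h. Its mean at 6 h was -0.87 ± 0.15 (1.82-fold lower, limma adjusted p = 0.00607 over 16083 probes, of which 17.5% were called and 10.4% called below). Probe M200009075 read 0.26, 0.35, 0.04 and 0.18 at 6 h, all above 0, with a mean of 0.21 ± 0.10 that did not pass (adjusted p = 0.162), where 7.06% of probes were called above. The signs of the probes at 6 h were thus opposite on each of the 4 arrays. Without replicate 2, the lowest value of M200009261 at 6 h, the mean of that probe was -0.63 and the call held (adjusted p = 0.0110). All its 6 h values lay below all its 1 h values, as for 4.75% of features (exact two-sided permutation p = 0.0286), but in the fit the difference of -0.57 ± 0.21 did not pass (adjusted p = 0.257).

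Averaged over both probes, Tsc22d4 stood at -0.33 ± 0.08 at 6 h (limma adjusted p = 0.0230, with 10.7% of features called below). It did not pass when replicate 2 of 6 h was left out (-0.24, adjusted p = 0.0872), nor replicate 3 (0.0751) nor replicate 4 (0.0533). This mean stands between probes of opposite sign and describes neither. M200009075 less M200009261 averaged 0.19 at 1 h and 1.07 at 6 h, and the 6 h arrays, from 0.77 to 1.91, lay above all the 1 h arrays, from -0.39 to 0.60 (exact two-sided permutation p = 0.0286, a comparison chosen after the values were seen). M200009261 separates the times by itself, and how many other probe pairs give such a separation was not counted. The separation is therefore a description. Over the 8 arrays the probes had a Pearson r of -0.75, given as a description. The annotation gives the first probe the accession of a RefSeq transcript and the second that of a cDNA clone. Whether they read the same transcripts was not tested. At 1 h neither probe passed (adjusted p = 0.394 for M200009075 and 0.135 for M200009261). Neither did the average, at -0.20 ± 0.08 (adjusted p = 0.0679).

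**Figure D2:**
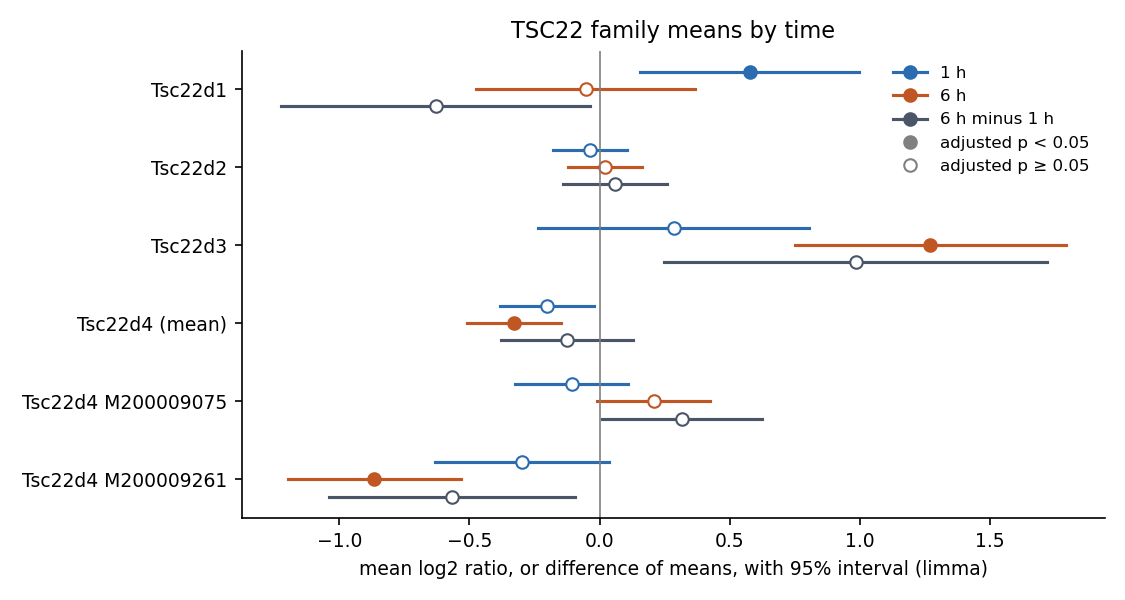
Mean log2 ratio of aldosterone over vehicle at 1 h (blue) and 6 h (orange) and the difference of 6 h minus 1 h (grey) for each family gene and for both probes of Tsc22d4, with 95% intervals of the limma fit, 4 arrays per time and filled points for adjusted p under 0.05. Tsc22d3 at 6 h lies at 1.27, away from the other 3 genes, and the probes of Tsc22d4 lie at 0.21 and -0.87.

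Within each array, Tsc22d3 was set against the other members, which takes out a shift common to the genes of an array but not a difference in scale. Tsc22d3 less Tsc22d1 averaged -0.29 ± 1.26 at 1 h and 1.32 ± 0.29 at 6 h (SD, n = 4 each). Tsc22d3 less Tsc22d2 averaged 0.32 ± 0.83 and 1.25 ± 0.17. Tsc22d3 less Tsc22d4 averaged 0.49 ± 0.74 and 1.60 ± 0.30. At 6 h Tsc22d3 exceeded Tsc22d1, Tsc22d2 and the mean of the Tsc22d4 probes on all 4 arrays, by at least 1.01, and probe M200009075 of Tsc22d4 by at least 0.80. For all 3 pairs the 6 h arrays lay above the 1 h arrays, with an exact two-sided permutation p of 0.0286, and 0.0286 after adjustment over the 3 pairs. The pairs share Tsc22d3, which separates the times by itself, and 43.1% of all other features give the same separation when subtracted from it. Against probe M200009075 alone the times overlapped, with 1.00 on replicate 1 of 1 h and 0.80 on replicate 2 of 6 h. After quantile normalization no pair passed (exact permutation p from 0.114 to 0.200), nor did any with a 6 h array left out (0.0857 to 0.171). In the latter setting the remaining 6 h arrays still lay above the 1 h arrays for each pair.

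By the order of the means at 6 h, Tsc22d3 came first, then Tsc22d2, Tsc22d1 and the mean of the Tsc22d4 probes. The last place depends on the probe, since M200009075 alone, at 0.21, would come second. Tsc22d2 and Tsc22d1 overlapped from array to array, and so did Tsc22d1 and Tsc22d4. At 1 h the order was Tsc22d1, Tsc22d3, Tsc22d2 and Tsc22d4, and each neighbouring pair overlapped except that the mean of the Tsc22d4 probes stayed below Tsc22d2. That gap was narrow (-0.155 against -0.145), and probe M200009075 alone, from -0.45 to 0.14 at 1 h, overlapped Tsc22d2. Over the 8 arrays the Pearson r of Tsc22d3 with Tsc22d1 was -0.74, with Tsc22d2 0.09 and with Tsc22d4 -0.17. These are descriptions over arrays that fall into a pair of times.

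The genes nearest to Tsc22d3 in value on all 8 arrays, by root-mean-square difference among 12531 genes, were Ccn2, Noct, Gclc, Usp2 and Akap12. Ccn2, a secreted matricellular protein, was nearest at 0.37 log2 units. It read 1.35, 1.26, -0.57 and 0.007 at 1 h, high and low on the same arrays as Tsc22d3, and 1.06, 0.55, 0.96 and 0.98 at 6 h. Its 6 h mean of 0.89 ± 0.28 did not pass (adjusted p = 0.0523), though it did after quantile normalization (0.0403). The other 4 were called above vehicle at 6 h by limma, against 7.13% of all features, but nearness to Tsc22d3 on these arrays largely fixes a high 6 h mean, so their values are a description. They were Noct, a circadian phosphatase, at 1.16 (adjusted p = 0.00307), and Gclc, the catalytic subunit of glutathione synthesis, at 0.94 (adjusted p = 0.00420). Usp2, a deubiquitinase known to act on the sodium channel, stood at 1.04 (adjusted p = 0.00330), and Akap12, a scaffold for protein kinase A, at 0.96 (adjusted p = 0.000859). As distance from 0 over the same arrays, Tsc22d3 itself measured 1.05.

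By Pearson r, which ignores size, the first 5 were 2010109A12Rik, Mepe, Cyp26a1, Egfr and Gadd45g, with r from 0.95 to 0.98, and none of them was among the nearest 5 by size. The first 3 of these had 6 h means of 0.20, 0.05 and 0.06, none past the test. Egfr, the epidermal growth factor receptor, read 0.21, 0.57, -0.98 and -0.20 at 1 h and 0.80, 0.72, 1.39 and 0.58 at 6 h, with a mean of 0.87 at 6 h (adjusted p = 0.0246). Gadd45g, a stress-response protein, averaged 0.46 at 6 h (adjusted p = 0.0163). Egfr missed the threshold when any one 6 h array was dropped (adjusted p from 0.0533 to 0.0951), and Gadd45g when replicate 1 (0.0581) or replicate 3 (0.0668) was. In all 38 genes had r of 0.9 or more, which over 8 arrays is a loose measure of likeness.

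**Figure D3:**
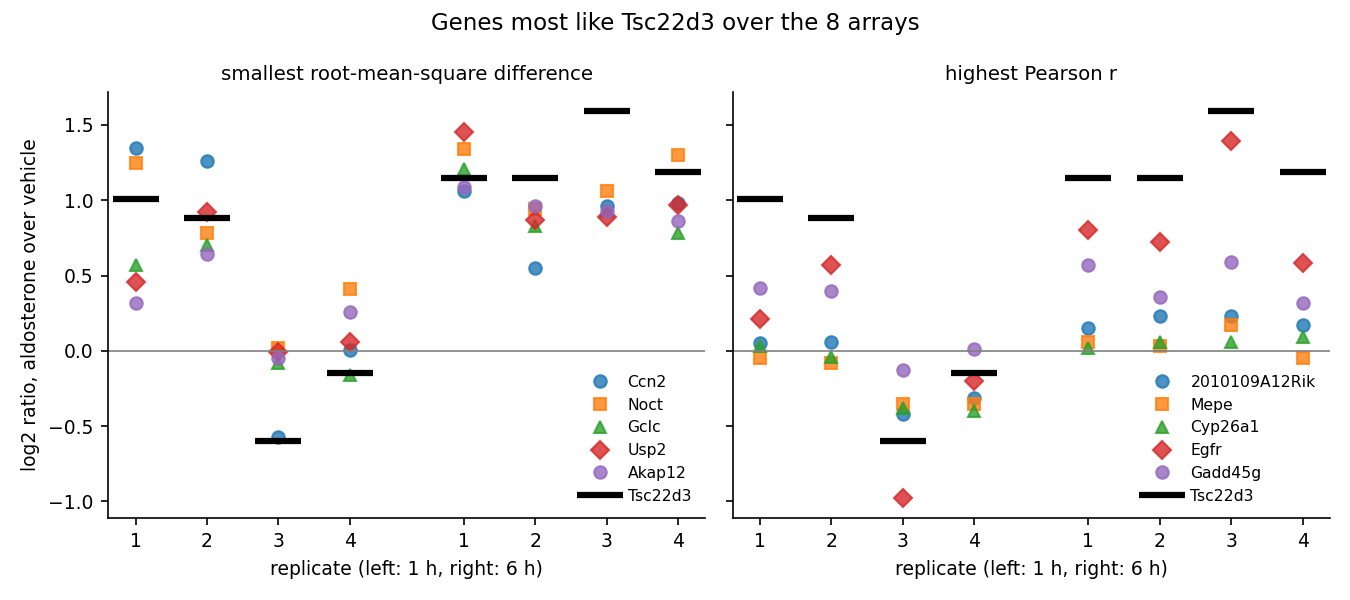
Log2 ratio of aldosterone over vehicle (vertical axis) on each of the 8 arrays for Tsc22d3 (black bars) and, as coloured points, the 5 genes nearest by root-mean-square difference (left panel) and the 5 with the highest Pearson r (right panel). At 1 h Tsc22d3 and Ccn2 are between 0.88 and 1.35 on replicates 1 and 2 and at or below 0.01 on replicates 3 and 4.

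Lists of genes that act with, upstream or downstream of the family held 60 genes, of which 42 were tested. At 6 h 7 were called above vehicle, 3 below and 32 neither (23.8% called, against 17.8% of all features), with a median of 0.05 against -0.0016 for all features. At 1 h 11 were above, 5 below and 26 neither (38.1%, against 41% of all features, 20% above and 21% below). With both directions pooled, these shares lie near those of all features. By direction they do not: at 6 h, 7.13% of all features were called above vehicle and 10.7% below. Among the 42 genes, calls above outnumbered calls below at both times, while among all features calls below were the more frequent. Whether the 42 genes differ from all features in direction was not tested. Each list below is small, and its count of calls is not read as a result about that list. In the contrast of the times 1 gene, Fkbp5, was called (2.38%, against 0.0265% of all features).

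Of the sodium channel regulatory complex, in which GILZ works, 5 of 7 genes were tested, and 2 were called above vehicle at 6 h with none below. Of all features, 7.13% were called above at 6 h. At 1 h 1 of these genes was above and 1 below, when 41% of all features were called. Sgk1 read 2.65, 2.00, 1.53 and 1.46 on the 6 h arrays, a mean of 1.91 ± 0.35 (limma adjusted p = 0.00794). Scnn1a, the alpha subunit of the channel, stood at 1.47 ± 0.11 (adjusted p = 0.000201), and it was called above vehicle at 1 h at 0.42 ± 0.11 (adjusted p = 0.0124). The 1 h call was lost without replicate 1 (limma adjusted p = 0.0503), after quantile normalization (0.0730) and after scaling to equal median absolute deviation (0.124). The gamma subunit Scnn1g was below vehicle at 1 h (-0.50 ± 0.12, adjusted p = 0.00962), and its 6 h value was -0.27 ± 0.12 (adjusted p = 0.144). Nedd4l, the ligase that removes the channel from the surface, stood at 0.05 ± 0.13 at 6 h (adjusted p = 0.824). Cnksr3 was not analysed here.

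Of the Ras-ERK cascade, which GILZ is known to restrain, 4 of 10 genes were tested, and 1 was called above vehicle at 6 h (7.13% of all features were). That was Dusp6, a phosphatase that inactivates ERK and is itself induced by it, at 0.86 ± 0.19 (adjusted p = 0.0158). It missed the threshold when replicate 1, 2 or 4 of 6 h was dropped (adjusted p from 0.0516 to 0.0666). Map2k1 stood at 0.14 and Map2k2 at 0.16 at 6 h, neither past the test. At 1 h Map2k1 was called above vehicle at 0.34 ± 0.09 (adjusted p = 0.0181), but not when replicate 3 (0.0537) or replicate 4 (0.0616) was dropped. Of the transcription factors that GILZ binds or regulates, 10 of 11 were tested, and 2 were above and 1 below at 6 h (7.13% and 10.7% of all features). Cebpb, a factor of inflammatory and metabolic genes, stood at 0.51 ± 0.08 (adjusted p = 0.00388). Rela, the NF-kB subunit that GILZ binds, stood at 0.23 ± 0.06 (adjusted p = 0.0347). Dropping any one 6 h array, or replicate 1 or 3 of 1 h, ended the call (adjusted p from 0.0504 to 0.123). The 1 h mean of Rela was 0.35 ± 0.06 (adjusted p = 0.00326) and passed in all the alternatives run. It was the highest of this list at 1 h, when 2 genes were called above and 2 below, with means down to -0.56. Of all features, 41% were called at 1 h. Foxo3, a forkhead factor, was below vehicle at -0.29 ± 0.06 (adjusted p = 0.0121, but 0.0504 without replicate 3).

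Of the NRBP, WNK and SPAK genes that work with the long TSC22 proteins, 6 of 11 were tested and 1 was called at 6 h. Of all features, 17.8% were called at 6 h. Stk39, which encodes SPAK, the kinase that WNKs activate, stood at 0.25 ± 0.06 (adjusted p = 0.0259), and the call was lost without replicate 2, 3 or 4 of 6 h (adjusted p from 0.0866 to 0.0972). Nrbp1 stood at 0.22 ± 0.12 at 1 h and 0.24 ± 0.12 at 6 h, without passing at either time (adjusted p = 0.181 and 0.207), and its relative Nrbp2 stood at -0.15 ± 0.09 at 6 h (adjusted p = 0.280). The WNK kinases were not analysed here. Of the TGF-beta genes upstream of Tsc22d1, 8 of 10 were tested and 2 were below vehicle at 6 h (10.7% of all features were). Tgfb1, the ligand, stood at -0.69 ± 0.14 at 1 h (adjusted p = 0.00589) and -0.66 ± 0.14 at 6 h (adjusted p = 0.0155, lost without replicate 1 or 2 of 6 h). Smad3, which carries the signal to the nucleus, stood at -0.51 ± 0.13 at 6 h (adjusted p = 0.0269, lost without replicate 2, 3 or 4 of 6 h). Smad2, its close relative, was above vehicle at 1 h at 0.68 ± 0.09 (adjusted p = 0.00133), when 20% of all features were called above. At 6 h Smad2 stood at 0.26 ± 0.09 and did not pass (adjusted p = 0.0686). It passed at 6 h after scaling to equal median absolute deviation (limma adjusted p = 0.0181) and after quantile normalization (0.0216). It also passed by one-class SAM and without replicate 4 of 1 h. A link to Tsc22d1 was not tested.

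Of the corticosteroid receptors, cofactors and enzymes, 9 of 11 were tested and 1 was called at 6 h (17.8% of all features were). Fkbp5, a chaperone partner of steroid receptors and a known corticosteroid target like Tsc22d3, stood at 0.53 ± 0.11 at 1 h (adjusted p = 0.00562, but 0.0546 after scaling to equal median absolute deviation) and 2.10 ± 0.11 at 6 h (adjusted p = 6.62e-05). Nr3c1, the glucocorticoid receptor, stood at -0.24 ± 0.20 at 6 h (adjusted p = 0.417). The enzymes that activate and inactivate glucocorticoids, Hsd11b1 and Hsd11b2, both stood at 0.17 at 6 h (adjusted p = 0.0897 and 0.167). Both passed at 6 h after scaling to equal median absolute deviation (limma adjusted p = 0.0284 and 0.0497) and after quantile normalization (0.0285 and 0.0492). Hsd11b1 was above vehicle at 1 h at 0.21 ± 0.06 (adjusted p = 0.0252), but not when replicate 1, 3 or 4 was dropped (0.0575 to 0.101). Nr3c2, the mineralocorticoid receptor, was not analysed here.

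**Figure D4:**
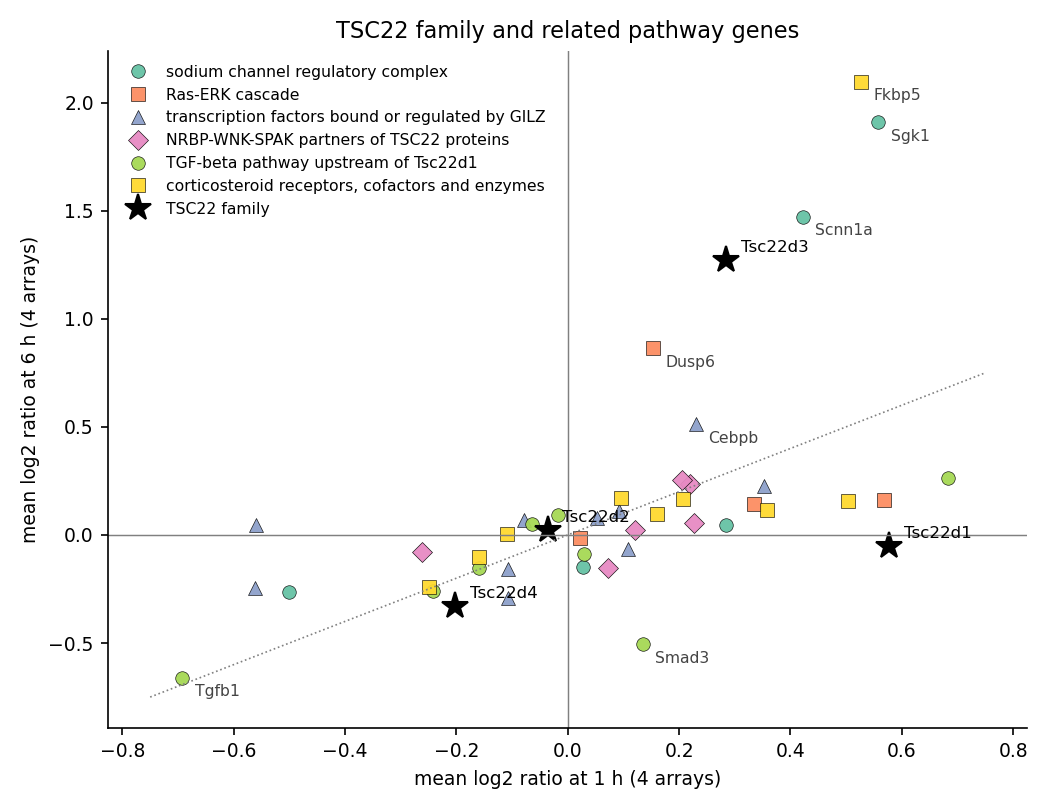
Mean log2 ratio of aldosterone over vehicle at 1 h (horizontal axis) and 6 h (vertical axis), 4 arrays each, for the 42 tested genes of the lists, coloured by list, and the 4 family genes (stars), with a dotted line of equal values. At 6 h Fkbp5 (2.10), Sgk1 (1.91), Scnn1a (1.47) and Tsc22d3 (1.27) lie highest and Tgfb1 (-0.66) lowest.

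Ratios within an array hold no level, so the cell type could not be checked against marker levels. At 6 h, when 17.8% of all features were called, 3 of 13 principal cell markers were called (2 above, 1 below), 2 of 6 intercalated cell markers and 2 of 8 markers of stroma, endothelium and blood. At 1 h, when 41% were, the counts were 7, 3 and 4. Each array held 16159 to 16285 values, with medians from -0.01 to 0.01 and standard deviations from 0.31 to 0.58, and arrays correlated with each other at r from 0.31 to 0.72. Whether each array had its own culture is not in the labels, so the p-values reflect array-to-array spread, which may be technical, and 4 arrays per time limit the precision.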

How the data were processed

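Total RNA of aldosterone- and vehicle-treated mpkCCDc14 cells was labelled with Cy5 and Cy3, hybridized together and scanned with GenePix 4.0, per the labels' protocols. Each deposited value is the log2 of Cy5 over Cy3 for a probe, which the authors normalized in Bioconductor, per the labels. The method of normalization and background correction is not given in the sources used here. Spot intensities were not used. No dye was swapped.

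Of 16361 probes, 13768 had 1 gene symbol in the platform annotation, 13 several and 2580 none. Probes with values on at least 3 of 4 arrays at each time were kept, and the 938 genes with several probes were averaged, which gave 15078 features (12535 genes). A model with a mean for each time was fitted to all 8 arrays in limma 3.58.1 (R 4.3.3) with moderated variances. Each time was tested against 0 and 6 h against 1 h, and p-values were adjusted by Benjamini-Hochberg over all features, with calls at 0.05. Single probes were tested likewise over 16083 probes. Exact two-sided permutation tests used all 70 splits of the arrays. The procedure was tested on simulated data.

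Genes named are the 4 members, the 5 nearest to Tsc22d3 by root-mean-square difference and by Pearson r, and of each list Sgk1, Nedd4l, Scnn1a, Nr3c1, Nr3c2, Nrbp1 and Rela where measured, with the 3 of smallest p at 6 h (another listed gene is not reported here). Scnn1g, Map2k1, Map2k2 and Smad2 are among those 3. The members and lists were chosen with earlier results of these data known. Promoter windows, 250 bases before each start, came from RefSeq (GRCm38.p6), and motifs were searched on both strands. Alternatives were other scalings and centring, single probes, robust moderation, array weights, each time alone, the one-class SAM that the labels name, and each array left out.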

Additional observations from a re-analysis of the deposited data

Results flagged for a closer look

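Of 76 groups of 4 arrays examined, 4 had an array far from the other 3, where chance alone gives about 1 in 20. Tsc22d3 on replicate 3 of 6 h, at 1.59, stood above the others, which lay from 1.15 to 1.19. The Tsc22d2 probe M200007366 on replicate 2 of 6 h, at -0.26, stood below the others at -0.06 to -0.04. Rela on replicate 3 of 6 h read 0.28, and the other 3 arrays all read 0.21. Nrbp2, a relative of Nrbp1, read 0.36 on replicate 4 of 1 h, apart from its other 1 h arrays. In the contrast of the times, where 0.0265% of all features were called, Fkbp5 was the only named gene called. Fkbp5 differed between the times by 1.57 (limma adjusted p = 0.0122). It missed the threshold after quantile normalization (adjusted p = 0.0572) and when replicate 4 of 1 h or replicate 1, 2 or 3 of 6 h was left out (0.0530 to 0.0765).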

How the results depend on the processing

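Tsc22d3 at 6 h kept its call under every alternative run, with means from 1.16 to 1.31 when an array was left out. Features called at 6 h numbered 2685, and 4986 after scaling to equal median absolute deviation, 4854 after quantile normalization, 4042 with array weights and 1099 to 4007 with an array left out. Features called between the times numbered 4, and under the same settings 9, 12, 8 and 0 to 5. Fitted by each time alone, Tsc22d1 at 1 h (0.58, adjusted p = 0.0715) and Tsc22d4 at 6 h (-0.33, adjusted p = 0.0580) lost their calls. With an array left out, Tsc22d1 at 1 h ranged from 0.30 to 0.76, Tsc22d4 at 1 h from -0.22 to -0.19 and Tsc22d4 at 6 h from -0.39 to -0.24. Tsc22d4 at 1 h passed by one-class SAM (-0.20) and without replicate 2 of 6 h (adjusted p = 0.0402), as did its probe M200009261 in the latter setting (0.0218). Tsc22d4 at 6 h turned to 0.21 when probe M200009075 stood alone. Under quantile normalization, Tsc22d3 less Tsc22d1, Tsc22d2 and Tsc22d4 differed between the times by 1.45, 0.82 and 1.01, none past the exact permutation test. With an array left out these ranged from 1.19 to 1.99, 0.61 to 1.16 and 0.83 to 1.34. The Tsc22d3 difference was 0.89 after quantile normalization, 1.18 after scaling, and 0.69 to 1.23 with an array left out. The exact test of Tsc22d3 by itself was not among the planned tests, and under these settings it was added after seeing the data. The causes of these changes were not tested. No paired analysis was possible because the labels give no replicate numbers shared between the times. Signal over background was not analysed here, so what dim spots limit is unknown.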
